A study of Mus musculus with 27 samples.

Results

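This account follows 10 genes of the primitive endoderm and its basement membrane through an RNA interference study in mouse embryonic stem (ES) cells. The genes were fixed by name: Gata4, Gata6, Sox17, Sox7, Pdgfra, Dab2, Sparc, Col4a1, Col4a2 and Lama1. Every probeset of the array annotated to one of these symbols was taken, which gave 11 probesets of 35556, and 10 genes of 19938 named on the array. Dab2 had 2 probesets (10422728 and 10422744) and each of the other genes had 1. Of these, 9 probesets of 9 genes had a mean log2 value of at least 6 over the arrays and were tested. The probeset of Sox17 (mean 5.99) and the second of Dab2 (mean 3.98) did not reach it and are given as values only.

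The primitive endoderm is the epithelium that separates from the epiblast in the late blastocyst and later gives the visceral and parietal endoderm of the yolk sac. FGF signalling favours it, the transcription factors GATA6, SOX17, GATA4 and SOX7 specify it, and the receptor PDGFRA and the adaptor DAB2 mark it. Its cells secrete laminin and type IV collagen, the 2 networks of the basement membrane, and the collagen-binding glycoprotein SPARC. ES cells represent the epiblast, and cultures commonly hold some cells that turn on these genes.

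RNA was measured on 27 Affymetrix mouse gene arrays of undifferentiated ES cells. PGK12.1 is a female line whose blastocysts had a 129 dam and, as sire, a (129 X PGK)F1 male. WD44 is a male line from BL6 blastocysts, and the line labelled E14 is a male Cast/BL6 hybrid from a BL6 mother. All cells received 100 pmol of siRNA for 48 h, in the control arrays a negative control siRNA. The PGK12.1 arrays numbered 1 and 2, controls included, were then transfected again, with 400 pmol over 24 h. MOF (gene Kat8) is the acetyltransferase of histone H4 lysine 16, and MSL1 is a scaffold of one of its complexes. PGK12.1 cells were given siRNA against MOF (experiments 1, 2 and 3), MSL1 (A, B and C), NSL1 (C, D and E) or MOF together with 50 pmol against MSL1 (D and E). WD44 and E14 cells were given siRNA against MOF in 2 experiments each. Each experiment had its own control array, 12 in all beside 15 knockdown arrays. The control of experiment C served MSL1 and NSL1, and those of D and E served NSL1 and the double knockdown, so these comparisons share arrays. The lines were grown on mouse embryonic fibroblast feeders, which the submitters depleted on gelatin before transfection. Each line stands for 1 culture genotype, and nothing in the labels says whether an experiment was a separate thaw. The p-values measure how far knockdown minus control differences vary between these experiments, with 1 spread per probeset pooled over all 27 arrays.

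Each knockdown array was compared with the control of its own experiment. A difference is given in log2 units, so that 1 is a doubling, and a probeset was called at an adjusted p under 0.05 (limma with the experiment as a block, Benjamini-Hochberg over all 16283 probesets tested). Arrays fell into 6 sets with different scales (array medians 6.22 to 7.96), and the block removes those steps. Without the block, calls over all probesets went from 2013 to 99 in WD44 and from 1357 to 109 in E14. They went from 3816 to 1250 after MOF siRNA in PGK12.1, 6480 to 4603 in the arrays labelled NSL1 and 1048 to 1612 in the double knockdown. Loss of a call without the block was therefore the usual case in WD44 and E14, for members and other genes alike. Kat8 fell by 1.22 after MOF siRNA in PGK12.1 (3 experiments), by 0.87 in the double knockdown, by 0.84 in WD44 and by 0.68 in E14 (2 experiments each), and Msl1 fell by 0.97 and 0.46 in its 2 comparisons. In the arrays labelled NSL1 the 2 Kansl1 probesets moved in opposite directions (-0.24 and 0.50) and Nsl1 was at 0.16 (adjusted p = 0.0502), so the gene silenced there is not settled, and these arrays are called by their label. Of 13 epiblast genes (Nanog, Sox2 and others), at least 12 stood above the array median on every array. Their mean level relative to that median was 2.96 to 3.07 in WD44 controls, 4.28 to 4.30 in E14 controls and 4.00 to 4.65 in PGK12.1 controls. In bulk RNA, more cells of a type and more RNA per cell cannot be told apart.

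Promoter windows of RefSeq on GRCm38.p6 (250 bases before a gene's start to 50 after it) were matched for 5 of the 10 genes: Pdgfra, Dab2, Sparc, Col4a1 and Col4a2. Col4a1 and Col4a2 are shown first because they form 1 collagen and start at the same place on opposite strands of chromosome 8. In the plus-strand stretch below (chr8:11312801-11312830), capitals mark the 22 bases from the start of Col4a2 (forward) to the start of Col4a1 (reverse), both ends included:
Col4a2 and Col4a1 start sites: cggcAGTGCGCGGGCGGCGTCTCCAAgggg
The 2 windows share 78 bases. Each window holds a single CCAAT in its 250 upstream bases, searched on both strands. For Col4a2 it lies 32 bases before the start, on the strand of the gene. For Col4a1 it lies 145 bases before the start, on the strand opposite to the gene. Of all 32851 windows, 33.8% hold that motif.

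Dab2 and Sparc are shown because results below turn on them. The upstream bases of both Dab2 starts (chr15:6299539-6299788 and chr15:6386498-6386747, plus strand) and of the Sparc start (chr11:55420081-55420330, minus strand) were searched on both strands for AGATAA and TGATAA, the letters GATA factors prefer. Capitals mark the match:
Dab2, first start: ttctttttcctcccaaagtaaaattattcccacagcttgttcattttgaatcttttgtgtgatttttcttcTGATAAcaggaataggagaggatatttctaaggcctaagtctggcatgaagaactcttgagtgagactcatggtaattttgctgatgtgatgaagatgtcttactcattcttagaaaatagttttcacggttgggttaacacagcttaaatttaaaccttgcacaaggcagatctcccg
Dab2, second start: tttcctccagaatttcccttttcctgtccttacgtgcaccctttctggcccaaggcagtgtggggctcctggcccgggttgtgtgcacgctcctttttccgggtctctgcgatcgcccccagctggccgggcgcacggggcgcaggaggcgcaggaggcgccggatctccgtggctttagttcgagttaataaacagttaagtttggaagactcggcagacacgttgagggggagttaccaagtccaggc
Sparc: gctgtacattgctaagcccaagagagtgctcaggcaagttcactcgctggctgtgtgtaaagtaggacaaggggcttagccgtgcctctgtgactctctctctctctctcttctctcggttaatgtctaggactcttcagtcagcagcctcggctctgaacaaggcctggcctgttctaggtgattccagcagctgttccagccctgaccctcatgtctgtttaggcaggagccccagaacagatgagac
TGATAA occurred once, 179 bases before the first Dab2 start, and neither motif occurred in the second Dab2 window or in those of Sparc, Pdgfra, Col4a1 and Col4a2. Either motif occurs in 16.6% of all windows. ATTGTT, a sequence of SOX factors, was in none of the windows of the 5 genes and is in 9.42% of all. A match describes the letters only.

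Over all experiments the member differences lay between -0.39 and 0.64, and Sparc, Dab2, Gata6, Col4a1, Col4a2 and Lama1 had calls. Sparc was called higher after MOF siRNA in both PGK12.1 and WD44, and Dab2 was called in both lines with different siRNAs. After MOF siRNA in PGK12.1, 1 of the 9 tested probesets was higher and none lower, where 23.4% of all probesets were called (9.49% higher, 13.9% lower). After MSL1 siRNA none of 9 was called (0 with an unadjusted p under 0.05 in limma), where 0.184% of all were. In the arrays labelled NSL1, 2 were higher and none lower, where 39.8% of all were called (18.4% higher, 21.4% lower). In the double knockdown none of 9 was called (2 with an unadjusted p under 0.05), where 6.44% of all were (3.24% higher, 3.19% lower). After MOF siRNA in WD44, 3 were higher and 1 lower, where 12.4% of all were called (4.38% higher, 7.98% lower). In E14, 1 was lower and none higher, where 8.33% of all were called (3.60% higher, 4.73% lower). The median difference of the 9 probesets was 0.13 in WD44 against -0.02 for all probesets, and in the other 5 comparisons it lay between -0.03 and 0.07. In WD44 the share of members called (4 of 9) was above that of all probesets, and in each of the other 5 comparisons it was near or below it.

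**Figure D1:**
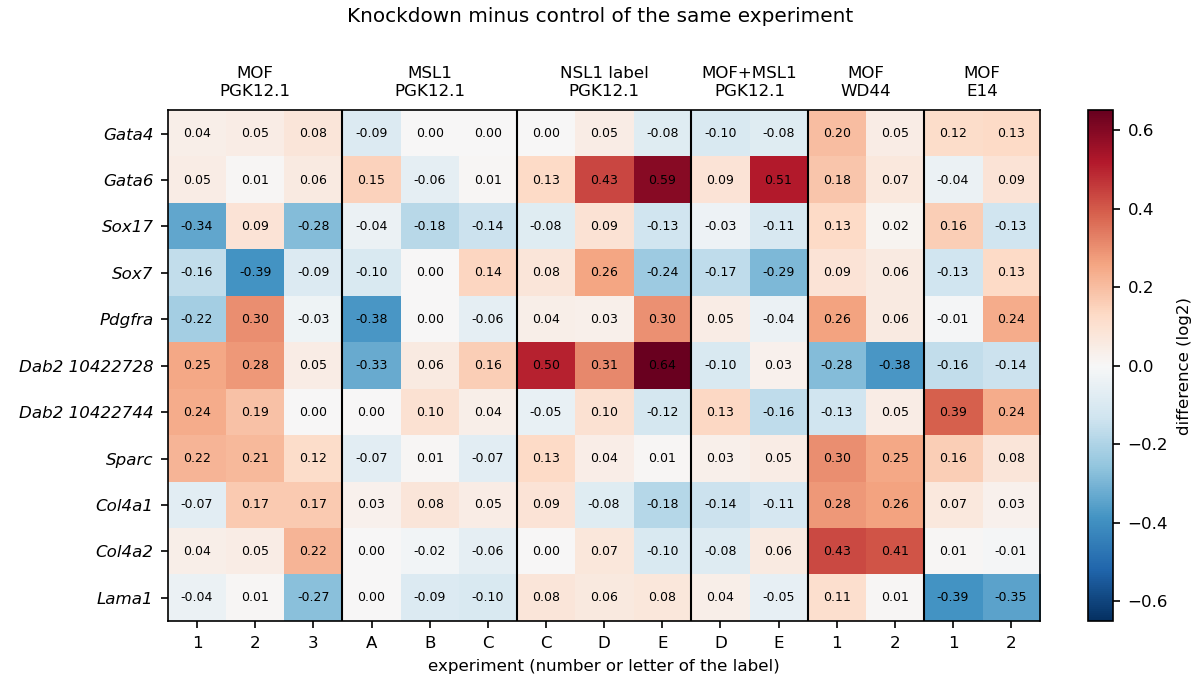
Difference between knockdown and control of the same experiment (log2, colour and number) for the 11 probesets (rows) in the 15 knockdown arrays (columns, grouped by target and line). The deepest reds are the Dab2 probeset 10422728 (0.64) and Gata6 (0.59) in experiment E of the arrays labelled NSL1. Gata6 in the double knockdown of that experiment follows at 0.51. The blue pair at the lower right is Lama1 in E14.

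Of the 3 tested transcription factors, Gata6 was the one that was called. GATA6 acts at the top of the primitive endoderm programme. In experiments C, D and E the Gata6 controls were at log2 values of 6.56, 6.40 and 6.22, and the arrays labelled NSL1 at 6.69, 6.84 and 6.81. All knockdown arrays lay above all controls, with differences of 0.13, 0.43 and 0.59. Groups that do not overlap were found for 28.9% of all probesets and 2 of the 9 members in this comparison. Gata6 rose by 0.37 (SE 0.08, n = 3 experiments, limma adjusted p = 0.00149). It was called with any single array of the comparison left out, at 0.25 to 0.51.

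In the same experiments D and E, the double knockdown put Gata6 at 6.49 and 6.74, which is 0.09 and 0.51 above the shared controls. That difference did not pass the test (0.23, SE 0.10, adjusted p = 0.175), and the 2 experiments disagree on its size. Control E enters both comparisons. It is the lowest Gata6 control of experiments A to E on the deposited scale, but relative to the array median control A is lower (-0.86 against -0.73). After MSL1 siRNA, Gata6 stood between 6.50 and 6.57 against 6.37 to 6.56 in the controls, and the groups overlap. The response labelled NSL1 exceeded that to MSL1 by 0.29 (SE 0.10, adjusted p = 0.0357, or 0.051 in a fit without PGK12.1 experiments 1 and 2), a contrast in which 32.3% of all probesets were called. It was not separated from the double knockdown (difference 0.14, adjusted p = 0.309) or from MOF siRNA in PGK12.1 (0.33, adjusted p = 0.0603), contrasts in which 26.5% and 16.0% of all probesets were called. MOF siRNA alone gave Gata6 differences of 0.05, 0.01 and 0.06 in PGK12.1, 0.18 and 0.07 in WD44, and -0.04 and 0.09 in E14, none of which passed the test.

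**Figure D2:**
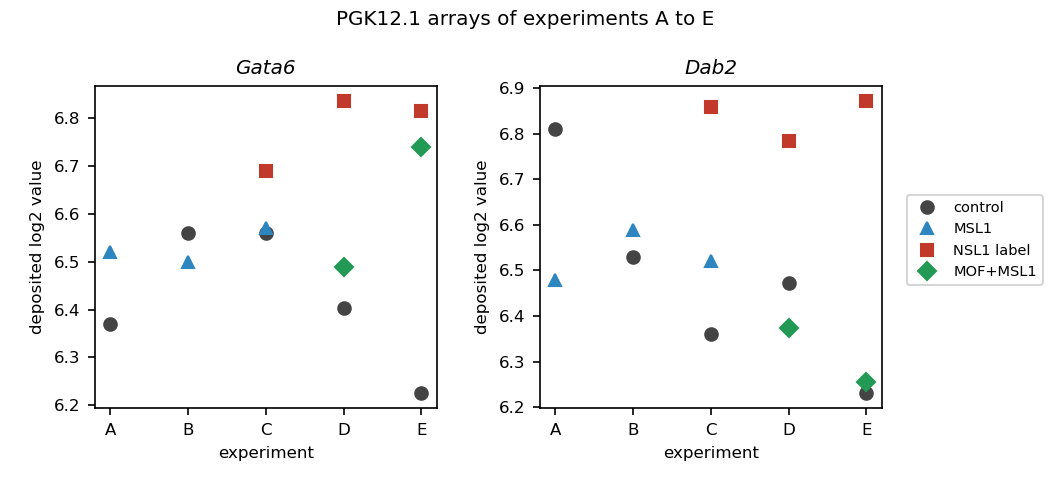
Deposited log2 value of Gata6 and of Dab2 (probeset 10422728) on each PGK12.1 array of experiments A to E, by siRNA. Squares (arrays labelled NSL1) lie above the control of their experiment in C, D and E for both genes, while diamonds (MOF plus MSL1) do so clearly for Gata6 in experiment E alone.

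Gata4, which works beside Gata6 and maintains the endoderm state, was not called in any comparison. Its differences were all small, from -0.10 in the double knockdown to 0.20 in WD44. In E14 both knockdown arrays (7.13 and 7.03) lay above both controls (7.01 and 6.90), by 0.12 and 0.13, with an adjusted p of 0.204. With 2 arrays a group, 50.6% of all probesets did not overlap there, as did 4 of the 9 members. Sox7, a later factor of the parietal and visceral endoderm, was at -0.16, -0.39 and -0.09 in the 3 MOF experiments of PGK12.1 and at -0.17 and -0.29 in the double knockdowns. Neither passed the test (adjusted p = 0.0773 and 0.188). In WD44 it was at 0.09 and 0.06, and in E14 at -0.13 and 0.13. Sox17, which drives the switch from epiblast to endoderm fate, stood at -1.31 to -0.92 relative to the array median in the means of the control sets and was not tested. Its differences ran from -0.34 to 0.16, with both signs in 3 of the 6 comparisons.

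Pdgfra and Dab2 are the surface receptor and the endocytic adaptor of the group. PDGFRA, the receptor for PDGF-A on primitive endoderm cells, was not called anywhere. Its differences ranged from -0.38 (MSL1 siRNA, experiment A) to 0.30, and the 3 MOF experiments of PGK12.1 gave -0.22, 0.30 and -0.03. Genes of 2 PDGF ligands did rise in the arrays labelled NSL1: Pdgfc by 0.64 (adjusted p = 1.46e-06) and Pdgfa by 0.25 (adjusted p = 0.000972). Pdgfc also rose by 0.35 after MOF siRNA in PGK12.1 (adjusted p = 0.00121).

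Dab2, whose product links cargo receptors to clathrin and orients the endoderm layer, gave the largest difference of any member. It was called higher in PGK12.1 arrays labelled NSL1 and lower after MOF siRNA in WD44, so that these calls differ in both siRNA and cells. In experiments C, D and E its controls were at 6.36, 6.47 and 6.23, and the arrays labelled NSL1 at 6.86, 6.78 and 6.87. The groups do not overlap, and each experiment showed the increase, by 0.50, 0.31 and 0.64. Dab2 rose by 0.45 (SE 0.08, n = 3, limma adjusted p = 0.000315), and it was called with any single array left out. Control A, which is not part of that pairing, was at 6.81.

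Neither partner comparison showed it. The double knockdown stood at 6.37 and 6.26 in experiments D and E, -0.10 and 0.03 from the controls, and MSL1 siRNA gave -0.33, 0.06 and 0.16. The response labelled NSL1 exceeded the double knockdown by 0.50 (SE 0.10, adjusted p = 0.00146). It exceeded that to MSL1 by 0.48 (SE 0.10, adjusted p = 0.00193). These comparisons share control arrays.

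MOF siRNA lowered Dab2 in WD44. There the controls were at 9.46 and 9.56 and both knockdown arrays at 9.18, so the groups do not overlap, as for 56.6% of all probesets and 6 of the 9 members there. Dab2 fell by 0.33 (SE 0.10, n = 2, limma adjusted p = 0.0432), but the adjusted p was 0.237 to 0.253 with an array left out and 0.223 without the experiment block. In E14 the controls were at 9.61 and 9.66 and the knockdown arrays at 9.45 and 9.52, a difference of -0.15 that did not pass the test (adjusted p = 0.399). In PGK12.1 the differences after MOF siRNA were 0.25, 0.28 and 0.05 (mean 0.19, adjusted p = 0.101), with knockdown arrays at 6.23 to 6.35 and controls at 5.98 to 6.18, groups that do not overlap, as for 6.84% of all probesets and 1 of the 9 members. The responses of PGK12.1 and WD44 differed by 0.52 (SE 0.13, adjusted p = 0.0497), a contrast in which 2.21% of all probesets were called. Without the block the adjusted p of that difference was 0.313. The larger PGK12.1 values came from experiments 1 and 2, which were transfected again, so this contrast mixes line and protocol. With experiment 3 alone, transfected once like WD44, it was 0.38 (adjusted p = 0.301). PGK12.1 and E14 differed by 0.34 (adjusted p = 0.17), where 2.50% of all were called. The second Dab2 probeset, far below the array median on all arrays, did not follow the first: in WD44 it differed by -0.13 and 0.05, and in E14 by 0.39 and 0.24.

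Of 15 tested genes of PDGF ligands and endocytic partners, Myo6, the myosin that binds DAB2, fell in 4 comparisons. It fell by 0.27 in the arrays labelled NSL1 (adjusted p = 0.00269), by 0.34 in the double knockdown (0.0156), by 0.26 in WD44 (0.043) and by 0.42 in E14 (0.00641). The last 2 lost the call without the block (adjusted p = 0.424 and 0.178). Lrp1, an endocytic receptor, rose by 0.51 after MOF siRNA in PGK12.1 (adjusted p = 1.56e-05). In all, 2 of the 15 were higher and none lower there, where 9.49% of all probesets were higher and 13.9% lower. The arrays labelled NSL1 had 4 higher and 2 lower, against 18.4% and 21.4% of all. In the double knockdown 1 was higher and 1 lower (3.24% and 3.19% of all). WD44 also had 1 of each (4.38% and 7.98% of all), the higher being the ligand Pdgfb (0.405, limma adjusted p = 0.0179, or 0.424 without the block). In E14, 1 was lower and none higher (4.73% and 3.60% of all). After MSL1 siRNA none was called (0.184% of all).

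The matrix genes were the group in which several members moved together, and they did so in WD44. SPARC is a secreted glycoprotein that binds collagen and is abundant in parietal endoderm. Its WD44 controls were at 13.10 and 13.01 and the MOF siRNA arrays at 13.40 and 13.26. Col4a1 and Col4a2 encode the chains of the common type IV collagen. Col4a1 went from 8.62 and 8.58 to 8.90 and 8.84. Col4a2 went from 8.41 and 8.19 to 8.84 and 8.60. In all 3 genes both knockdown arrays lay above both controls, which is the usual state with 2 arrays a group (56.6% of all probesets did not overlap). Col4a2 rose by 0.42 (SE 0.07, n = 2 experiments, limma adjusted p = 0.00272), Sparc by 0.28 (SE 0.06, adjusted p = 0.00882) and Col4a1 by 0.27 (SE 0.07, adjusted p = 0.0275). Lama1, the laminin alpha chain of early embryonic basement membranes, was at 0.11 and 0.01 there.

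These calls rest on few arrays. Without the experiment block the adjusted p was 0.247 for Col4a2, 0.117 for Sparc and 0.488 for Col4a1. Leaving out either array of experiment 1 ended all 3 calls (adjusted p = 0.0737, 0.163 and 0.266), and leaving out either of experiment 2 ended those of Sparc (0.0511) and Col4a1 (0.126).

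Fibroblast markers were higher in the same WD44 arrays. Of 27 markers of fibroblast feeders, 26 were on the array and 17 were tested, of which 8 were higher and 1 lower (median 0.23, against -0.02 for all genes). Of all probesets, 4.38% were called higher and 7.98% lower. Acta2, smooth muscle actin, was at 11.46 and 11.39 in the controls and 12.40 and 12.39 after MOF siRNA, a rise of 0.97 (adjusted p = 0.00171). The fibrillar collagens Col1a1, Col3a1 and Col5a2 rose by 0.38, 0.31 and 0.33, and Mmp2, a collagenase and the 1 marker that was lower, fell by 0.28. The mean level of the 26 markers, relative to the array median, was -0.98 to -0.59 in PGK12.1 controls and -0.87 to -0.84 in E14 controls. It was -0.22 to -0.21 in the WD44 controls and -0.07 to -0.05 after MOF siRNA there, and none of the WD44 calls held without the block. RMA values have no zero, and 8 of the 26 markers stood above the array median in both controls against 9 and 10 after MOF siRNA. In E14, where Col4a1 and Col4a2 were at 0.05 and 0.00, 1 marker was higher (Acta2, by 0.55) and none lower. The shares of all probesets there were 3.60% and 4.73%. The part of fibroblast RNA in the WD44 values of Sparc, Col4a1 and Col4a2 was not tested.

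**Figure D3:**
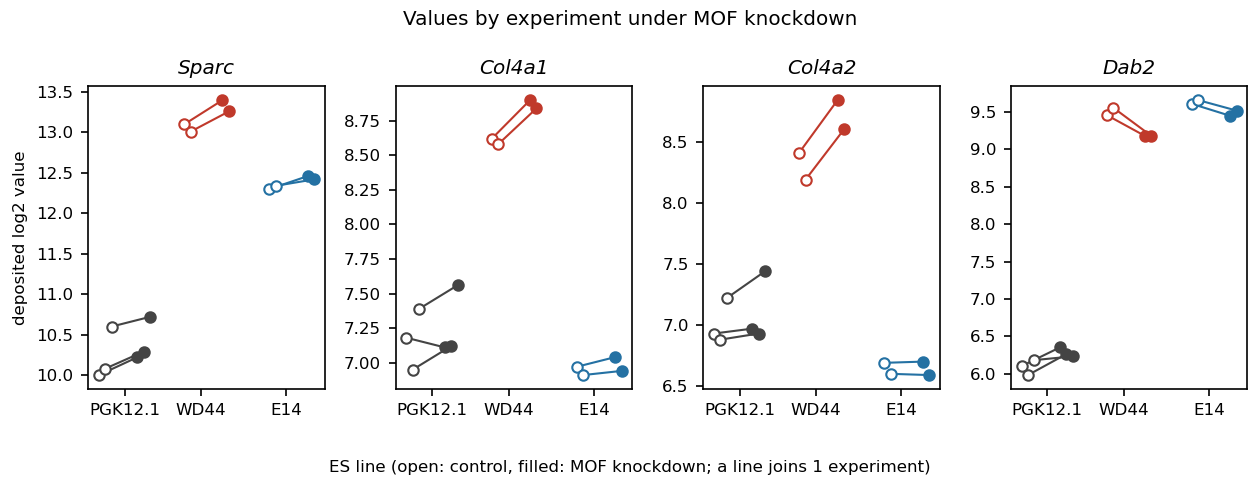
Deposited log2 values of Sparc, Col4a1, Col4a2 and Dab2 (probeset 10422728) in control (open) and MOF siRNA (filled) arrays of each ES line, joined within an experiment. In WD44 (red) the 3 matrix genes slope up and Dab2 slopes down in both experiments. Scales of the lines differ, so slopes and not heights compare between lines.

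In PGK12.1, MOF siRNA raised Sparc from 10, 10.08 and 10.60 to 10.22, 10.29 and 10.72. Each experiment rose, by 0.22, 0.21 and 0.12, although the groups overlap because experiment 3 sits on another scale. Sparc rose by 0.18 (SE 0.05, n = 3, limma adjusted p = 0.00964). The adjusted p was 0.09 without the block, 0.0539 without an array of experiment 1, 0.0649 without one of experiment 2 and 0.374 from experiment 3 alone. Of the 17 fibroblast markers, none was higher and 2 were lower there (Fstl1 by 0.28 and Twist1 by 0.18), where 9.49% and 13.9% of all probesets were. Col4a1 was at -0.07, 0.17 and 0.17 and Col4a2 at 0.04, 0.05 and 0.22 (adjusted p = 0.299 and 0.205). In E14, Sparc was at 0.16 and 0.08 (adjusted p = 0.213), with both knockdown arrays above both controls. After MOF siRNA, Sparc was therefore higher than its own control in all 7 experiments of the 3 lines, by 0.08 to 0.30. The responses of the lines were not separated for Sparc (differences of -0.09 to 0.16, adjusted p from 0.344 to 0.715).

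The Col4a2 response did differ between the 2 male lines. It was 0.42 in WD44 and 0.00 in E14 (0.01 and -0.01), a difference of 0.42 (SE 0.10, adjusted p = 0.0479) in a contrast where 1.39% of all probesets were called. The adjusted p was 0.0503 after centring each array on its median and 0.879 without the block. Against PGK12.1 the WD44 response of Col4a2 was 0.32 higher (adjusted p = 0.0791). For Col4a1 the 2 male lines differed by 0.22 (adjusted p = 0.296).

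In the PGK12.1 experiments with MSL1, NSL1 or double siRNA none of the 4 matrix members was called. Sparc stood between 11.99 and 12.33 on all those arrays and their controls, with differences of -0.07 to 0.13. Col4a1 differences ran from -0.18 to 0.09 and those of Col4a2 from -0.10 to 0.07. In the double knockdown both Col4a1 arrays (6.71 and 6.85) lay at or below both controls (6.85 and 6.96), with an adjusted p of 0.546. There 47.1% of all probesets did not overlap, as did 4 of the 9 members.

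Lama1 fell in E14. The controls were at 8.89 and 8.79 and the MOF siRNA arrays at 8.50 and 8.44, so all knockdown values lay below all controls, as values did without overlap for 50.6% of all probesets in E14. The fall was 0.37 (SE 0.07, n = 2, limma adjusted p = 0.00503), with 0.39 and 0.35 in the 2 experiments. With an array of experiment 1 left out the adjusted p was 0.132, with one of experiment 2 left out it was 0.054, and without the block it was 0.608. In WD44 the differences were 0.11 and 0.01, and the responses of the 2 lines differed by 0.43 (SE 0.09, adjusted p = 0.037, or 0.994 without the block). In PGK12.1 they were -0.04, 0.01 and -0.27 after MOF siRNA (adjusted p = 0.203), and the last, from the experiment transfected once, passed the test when fitted alone (adjusted p = 0.048). In the other PGK12.1 comparisons Lama1 differences stayed between -0.10 and 0.08, and the 3 values in the arrays labelled NSL1 (0.08, 0.06 and 0.08) did not pass the test (adjusted p = 0.247).

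The partner chains of Lama1 in the laminin trimer fell with it in E14. Lamc1 went from 11.65 and 11.53 to 11.34 and 11.21 (-0.32, adjusted p = 0.0212), and Lamb1 from 8.81 and 8.84 to 8.56 and 8.56 (-0.27, adjusted p = 0.0409). Of all probesets in E14, 4.73% were called lower and 3.60% higher. Of 24 tested genes of the basement membrane other than the members, 5 were lower there and none higher (median -0.04, against 0.00 for all genes). The other 3 were Pxdn, the peroxidasin that crosslinks collagen IV (-0.34), Col18a1, a heparan sulfate collagen (-0.27), and the laminin linker Nid2 (-0.25). None of the 5 calls held without the block, where 109 of all probesets were called against 1357 with it. Neither Lamb1 nor Lamc1 moved by more than 0.11 in the experiments with MOF siRNA alone in PGK12.1 or WD44. In the double knockdown each reached -0.18 in 1 experiment (fits of -0.14 each, adjusted p = 0.272 and 0.27). Pxdn also fell by 0.32 after MOF siRNA in PGK12.1 (adjusted p = 0.00153, or 0.0689 without the block) and by 0.36 in the double knockdown (adjusted p = 0.00882).

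**Figure D4:**
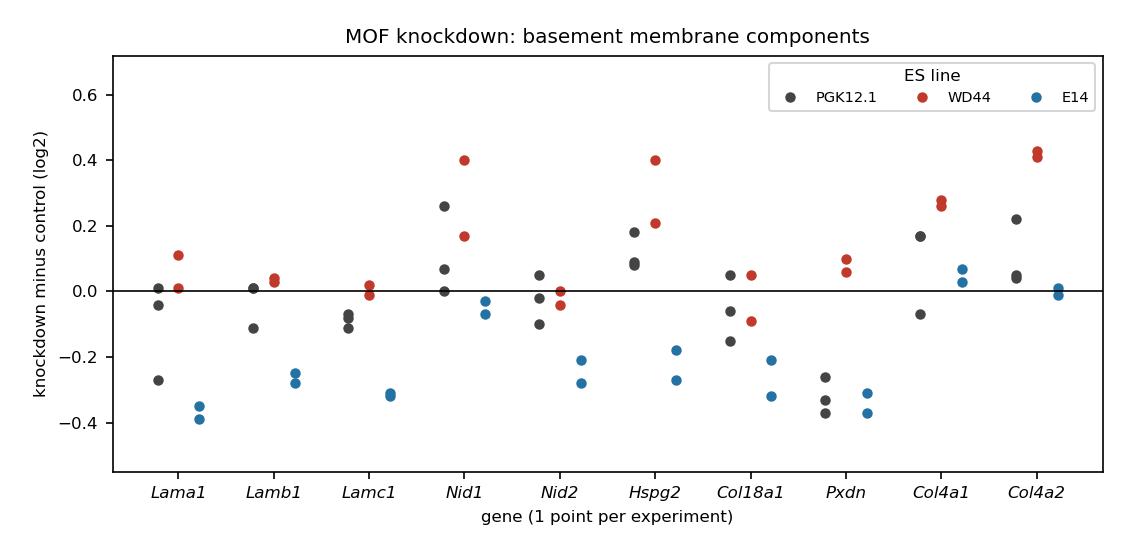
Difference after MOF siRNA (log2, 1 point per experiment) for basement membrane genes in the 3 ES lines, with genes chosen for display after their values were seen. In E14 (blue) the 3 laminin chains Lama1, Lamb1 and Lamc1 lie between -0.39 and -0.25, while in WD44 (red) they lie between -0.01 and 0.11 and Col4a1 and Col4a2 lie at 0.26 and above.

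In WD44, 5 of the 24 basement membrane genes were higher and none lower (median 0.11, against -0.02 for all genes). Of all probesets there, 4.38% were called higher and 7.98% lower. Fibroblast markers were higher in the same arrays (8 of 17, median 0.23), and their part in the values of this paragraph was not tested. Hspg2, the proteoglycan perlecan, rose by 0.31, Tinagl1 by 0.30, Col15a1 by 0.29 and Col4a5, another type IV collagen chain, by 0.25. Among 18 matrix receptor and adhesion genes 4 were higher and none lower there, among them the integrins Itgb1 (0.28), Itgb4 (0.29) and Itgav (0.30) and the adaptor Tln1 (0.23). All these WD44 calls were lost without the block, where 99 of all probesets were called against 2013 with it. The same 18 genes had 4 higher and 2 lower after MOF siRNA in PGK12.1 (9.49% and 13.9% of all probesets). In the arrays labelled NSL1, 1 was higher and 4 lower (18.4% and 21.4% of all). Without the block, 2 higher and 0 lower remained in the first, and 1 and 4 in the second. The double knockdown had 1 higher and 2 lower (3.24% and 3.19% of all) and E14 1 of each (3.60% and 4.73%). After MSL1 siRNA 1 was lower and none higher (0.184% of all). Difference between the lines was not tested for the lists. Of 14 collagen processing genes, 2 were higher and 1 lower in WD44, none of them without the block. The vesicle coat subunit Sec23a fell by 0.26 (adjusted p = 0.0193), Serpinh1, the collagen chaperone, rose by 0.29 (adjusted p = 0.0383) and P4hb, a subunit of collagen prolyl hydroxylase, rose by 0.18 (adjusted p = 0.0446). Mia3, which loads large cargo such as collagen into transport vesicles, fell by 0.47 in E14, 0.40 in PGK12.1 after MOF siRNA, 0.41 in the double knockdown and 0.20 in the arrays labelled NSL1, all passing the test. Sec24d, another coat subunit, fell by 0.39 in E14 and 0.40 in PGK12.1 after MOF siRNA. The E14 calls of Mia3 and Sec24d were lost without the block (adjusted p = 0.0737 and 0.168). Of the 14 genes, 3 were lower and 1 higher in E14, 4 lower and 2 higher in PGK12.1 after MOF siRNA, and 4 lower and 3 higher in the arrays labelled NSL1. Without the block these counts became 0 and 0, 3 and 1, and 3 and 1. With the block, the shares of all probesets called lower and higher were 4.73% and 3.60%, 13.9% and 9.49%, and 21.4% and 18.4%.

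The arrays labelled NSL1, where Gata6 and Dab2 rose, had calls on the lists of related endoderm genes as well. The background was 18.4% of all probesets called higher and 21.4% lower. Of 16 parietal endoderm genes 8 were higher and none lower (median 0.18, against -0.01 for all genes). Cited2, a transcriptional coregulator, rose by 0.64 (adjusted p = 1.33e-06), the annexin Anxa1 by 0.83, the activin antagonist Fst by 0.41 and tissue plasminogen activator, Plat, by 0.49. These 4 were called without the block too, and of the 8 higher genes 5 were. Among 24 basement membrane genes 9 were higher and 1 lower, led by Lama5 (0.32), agrin (Agrn, 0.37), Hspg2 (0.31) and Nid1 (0.31), the last 2 not called without the block. Of those 10 calls, 4 higher and 0 lower remained without it. Lamb1 (0.16, limma adjusted p = 0.0372) is counted on both the parietal endoderm and the basement membrane list. Of 10 visceral endoderm genes 3 were higher: Apoe, the apolipoprotein (0.42), Lrp2, the endocytic receptor megalin (0.33), and transferrin (Trf, 0.19, not called without the block). On a list of further primitive endoderm factors, 3 of 9 tested genes were higher and 1 lower. Hhex rose by 0.29, Foxh1, a Nodal effector, by 0.28 and Klf6 by 0.21. Sox18, which is also on the endothelial list, fell by 0.43. The calls of Hhex and Klf6 were lost without the block (adjusted p = 0.0591 and 0.249). With 3 of 10 and 3 of 9 higher, the visceral endoderm list and this list were near the 18.4% of all probesets.

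The other comparisons, in which 0.184% to 23.4% of all probesets were called, gave these calls for the same lists. Of the 16 parietal endoderm genes, 3 were higher in WD44 (the chaperone Cryab by 0.72, the protease Ctsl by 0.28 and Snai1 by 0.25), 2 in PGK12.1 after MOF siRNA (Cryab by 0.40 and Grem1 by 0.22) and 1 in the double knockdown (Snai1 by 0.28). In E14, 2 were lower, the laminins Lamb1 and Lamc1 given above. Of the 10 visceral endoderm genes, 2 were higher in WD44 (Lrp2 by 0.37 and the ligand Ihh by 0.33) and 1 was lower in PGK12.1 after MOF siRNA (Trf by 0.22). Of the 9 genes on the list of further primitive endoderm factors, 1 was higher in each of 3 comparisons. These were PGK12.1 after MOF siRNA (Klf6 by 0.25), the double knockdown (Hnf4a by 0.31) and E14 (Foxh1 by 0.39). After MSL1 siRNA none of these genes was called by limma with or without the block (unadjusted p under 0.05 for 0 of 16, 2 of 10 and 3 of 9). Apart from Hnf4a and Foxh1, the calls of this paragraph were lost without the block.

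FGF and ERK pathway genes moved in both directions across the comparisons. In the arrays labelled NSL1, where 18.4% of all probesets were called higher and 21.4% lower, 8 of 20 were higher and 1 lower (median 0.11). Etv1 rose by 0.48, the ERK phosphatase Dusp4 by 0.56 and the receptor Fgfr1 by 0.30, while Ier3 fell by 0.57. Without the block 2 were higher and 1 lower. In E14 none was higher and 3 were lower, where 3.60% and 4.73% of all probesets were. The 3 calls (Egr1 by 0.84, Spry2 by 0.29 and Dusp5 by 0.26) were all lost without the block. After MOF siRNA in PGK12.1, 1 was higher and 5 were lower, where 9.49% and 13.9% of all probesets were. Among them were Fgfr1 (0.29) and Myc (-0.38), of which Fgfr1 alone was called without the block. Of 13 epiblast genes, 2 were lower and none higher after MOF siRNA in PGK12.1. Tdgf1 fell by 0.17 (limma adjusted p = 0.0298, or 0.0445 without the block) and Nanog by 0.14 (0.0427, or 0.131 without the block). Tdgf1 also fell, by 0.19, in the arrays labelled NSL1, and the others were not called there. Fibroblast markers there had 2 higher and 3 lower of 17 (median -0.01), Fstl1 rising by 0.63 and Pdgfrb falling by 0.34. Of 9 genes of the definitive endoderm and mesendoderm, 2 were higher (Eomes by 0.52 and Cxcr4 by 0.43) and 1 lower (Mixl1 by 0.39). Of 7 retinoid response genes, 1 was higher (Dhrs3 by 0.94) and 2 lower (Tgm2 by 0.34 and Crabp1 by 0.22). Among 9 endothelial genes 2 were higher and 1 lower (Sox18 again). Among 12 trophectoderm genes 2 were higher (Eomes again among them) and 2 lower. These counts in the arrays labelled NSL1 stand beside 18.4% of all probesets called higher and 21.4% lower.

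The members also differed in their control levels between lines, which is given as a description since the sets were not on 1 scale. Relative to its array median, Dab2 (probeset 10422728) stood at -0.66 ± 0.09 (SD, n = 3) in PGK12.1 controls 1 to 3, -0.66 ± 0.23 (n = 3) in A to C and -0.59 ± 0.19 (n = 2) in D and E. In WD44 it stood at 1.21 ± 0.07 (n = 2) and in E14 at 2.50 ± 0.02 (n = 2). The order was therefore PGK12.1, WD44, E14, with no overlap between lines and overlap among the PGK12.1 sets. Gata6 was highest in WD44 (0.04 ± 0.01, n = 2), with E14 at -0.21 ± 0.16 (n = 2) and the PGK12.1 sets at means of -0.73 to -0.46. PGK12.1 controls 1 to 3 ran from -1.12 to -0.12 and overlapped those of E14 (-0.32 to -0.10).

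Other members varied as much among sets of the same line as between lines. Sox7 was at 0.24 in PGK12.1 controls 1 to 3 and at -0.90 and -1.06 in A to C and in D and E. Sparc was at 3.48 in controls 1 to 3 and at 4.89 and 5.33 in the later PGK12.1 sets, against 4.76 in WD44 and 5.18 in E14, and its order between WD44 and PGK12.1 A to C turned after quantile normalization (from -0.14 to 0.27). Lama1 was at 1.38, 2.56 and 2.24 in the 3 PGK12.1 sets, 1.15 in WD44 and 1.70 in E14. Pdgfra reached its lowest mean, -1.80, in PGK12.1 controls D and E, against -1.11 to -0.69 elsewhere. Gata4, Col4a1 and Col4a2 had means between -0.50 and 0.42 in every set, and Sox17 was below it on every control array.

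**Figure D5:**
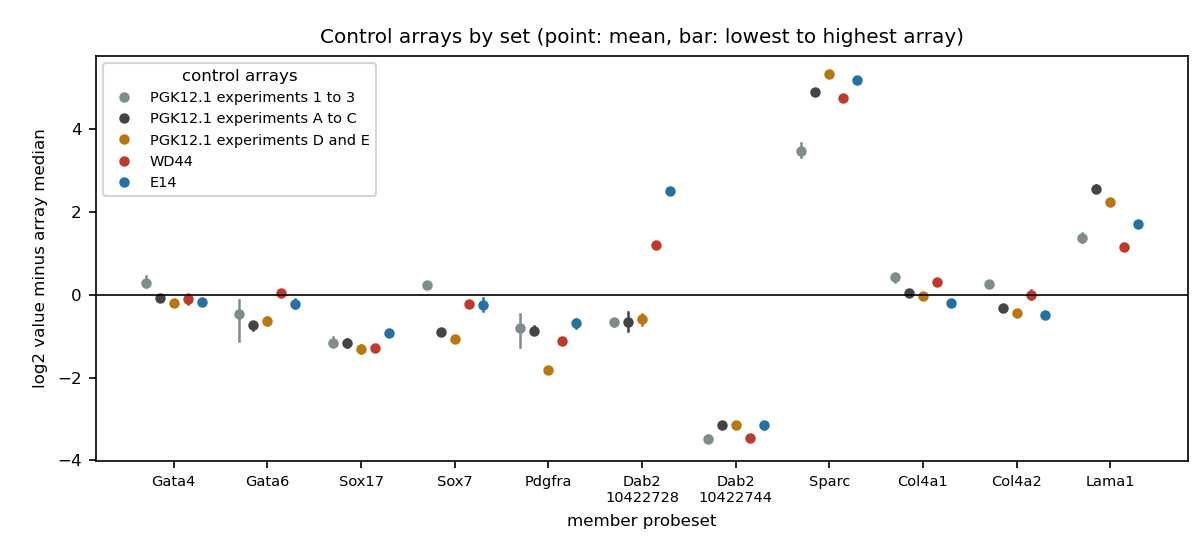
Level of each member probeset on control arrays, as log2 value minus array median, by set (points are means, bars run from the lowest to the highest array). Dab2 (10422728) separates the lines, from below 0 in the 3 PGK12.1 sets to 1.21 in WD44 and 2.50 in E14, while Sox7, Sparc and Lama1 shift between sets of PGK12.1.

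Among the members, Col4a1, Col4a2, Sparc and Gata4 varied alike over the 27 arrays, taken as deviations from the mean of each experiment. Pearson's r was 0.81 for Col4a1 with Col4a2, 0.74 for Sparc with Col4a2 and 0.66 for Sparc with Col4a1. Gata4 was at 0.66 with Sparc, 0.67 with Col4a1 and 0.64 with Col4a2. Lama1, the other matrix member, was at -0.16, -0.18 and -0.03 with Sparc, Col4a1 and Col4a2, and Gata6 with Dab2 was at 0.41. These are descriptions: arrays of an experiment share a control, and the WD44 arrays carry the largest Col4a2 deviations. Of 13988 other genes, those most like Col4a1 were Krtap3-1 (r = 0.96), Tagln (0.94) and Nkx2-6 (0.93), Tagln being on the fibroblast list. Most like Sparc were Lrpap1 (0.92), A630072L19Rik (0.90) and 9530068E07Rik (0.90), and most like Gata6 were Rnf216 (0.91), Slc25a40 (0.91) and Larp4 (0.90).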

How the data were processed

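Each array had a single deposited log2 value for every probeset. The submitters' processing notes name Expression Console and RMA, a method of background correction, quantile normalization and probe summary; their versions and the build are not given in the sources used here. Medians of arrays stepped between sets of experiments, so the sets may have been normalized apart. Probesets were named through the platform annotation updated through RefSeq (GRCm38.p6): 21789 had 1 symbol, 1621 several and 12146 none, and 21698 matched RefSeq.

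Differences were fitted over all 27 arrays with limma 3.58.1 in R 4.3.3, with the 12 experiments as a block and 6 knockdown effects (9 residual degrees of freedom), on 16283 probesets with a mean of at least 6 and a symbol. The pairing came from the labels. Deviations from group means correlated between a knockdown array and its own control at -0.004 (MSL1, experiment B) to 0.87 (MOF, experiment 3). In WD44 (0.01), E14 (0.13) and the double knockdown (0.25), with 2 experiments, the correlation with the other control is the same with its sign turned, so this check did not settle the pairing. The fit without the block had group means and a covariate for arrays transfected again. Calls with 2 experiments draw on the spread of all arrays. Genes in lists were represented by their probeset of highest mean (13989 genes).

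The fit was tested on simulated data over 16283 probesets, with 66 or 67 changed by each size (0.25, 0.5 or 1) per comparison. It recovered 73.1% of changes of 0.5 in WD44, 85.1% in E14 and 89.6% to 94% in NSL1 and MOF in PGK12.1. Of changes of 0.25 it recovered 19.7% to 50% over the 6 comparisons. False calls were 10 of 141 in WD44 and 15 of 152 in E14, and 3 to 7 elsewhere. Apart from MSL1, more probesets were called in the data than were changed here, and recovery depends on that share, so these rates describe the simulation. Members and lists were chosen with earlier results of these data known. Named genes were the members, the targets, up to 4 called genes per list with the smallest p, and the 3 genes most like Gata6, Sparc and Col4a1; Mmp2 in WD44, Myo6 in NSL1, Lamb1 and the genes plotted beside it were chosen after their values were seen. No array depth applies, and the number of arrays limits precision.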

Additional observations from a re-analysis of the deposited data

Results flagged for a closer look

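Gata4 in PGK12.1 control D stood at -0.28 relative to its array median, with the nearest of the other 4 controls of experiments A to E at -0.12. It lay far from the others for the range of the group, a distance that chance alone gives in a small share of groups; the controls came from 2 sets, and no call for Gata4 was made.

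The response to MOF siRNA differed between lines for 3 members by a test of the difference: Dab2 by 0.52 (PGK12.1 minus WD44, limma adjusted p = 0.0497), Col4a2 by 0.42 (WD44 minus E14, adjusted p = 0.0479) and Lama1 by 0.43 (WD44 minus E14, adjusted p = 0.037). All 3 lost the call without the experiment block. The Dab2 difference was 0.38 (adjusted p = 0.301) with the PGK12.1 experiment transfected once alone.

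In 2 further cases every experiment of one line moved one way and every experiment of another line the opposite way. Sox7 was negative in the 3 PGK12.1 experiments and positive in both WD44 experiments (difference -0.29, adjusted p = 0.262). Dab2 was positive in the 3 PGK12.1 experiments and negative in both E14 experiments (difference 0.34, adjusted p = 0.17). Neither difference passed the test.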

How the results depend on the processing

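Over the alternatives, 597 of 639 log2 differences of the tested members stayed on their side of the threshold, 37 lost a call and 5 gained one. No called value reversed its direction. For values called in neither fit, direction was not compared. Some of those changed sign, such as Pdgfra after MSL1 siRNA (-0.13, and 0.34 without the block). Gata6 and Dab2 in the arrays labelled NSL1 were called in every setting that tested them. Without the replicate block the number of members called went to 0 for MOF in PGK12.1, WD44 and E14 and to 1 for the double knockdown (Sox7, -0.50), and the differences called between comparisons from 6 to 12. That fit sets the double knockdown against controls A to E together, which were on different scales. Sox7 control means were 6.33 in A to C and 5.88 in D and E, and its paired differences were -0.17 and -0.29. Pdgfra in double knockdown minus MSL1 was 0.10 with the block and -1.06 without, so gains there cannot be told apart from the scale steps. With the arrays of each comparison alone it was 0 for MOF in PGK12.1, WD44 and E14 (limma; 3, 4 and 2 with an unadjusted p under 0.05). Quantile normalization gave 2 for MOF in PGK12.1 (with Sox7), no filter 2 for E14 (with the low Dab2 probeset), and a minimum of 7 left 1 for NSL1, since Gata6 was not tested there. Leaving out 1 array gave 0 to 1 for MOF in PGK12.1, 0 to 1 in WD44 and 0 in E14. Of all probesets, the calls without the block were 1250 (MOF in PGK12.1), 10 (MSL1), 4603 (NSL1), 1612 (double), 99 (WD44) and 109 (E14). Leaving out PGK12.1 experiments 1 and 2, which were transfected again (chosen after seeing the data), gave 1583 for MOF in PGK12.1, and its 1 member called was Lama1 in place of Sparc. With the arrays of a comparison alone they were 1516 (MOF in PGK12.1) and 0 for MSL1, WD44 and E14 (2052, 3458 and 3224 at an unadjusted p under 0.05). With no filter they were 15 (MSL1), 690 (double) and 857 (E14), at a minimum of 7 they were 68 (MSL1), with array weights 267 (MSL1), 9722 (NSL1) and 2435 (double), and after quantile normalization 693 (double). Leaving out 1 array gave 2288 to 3361 for MOF in PGK12.1, 3 to 13 for MSL1, 130 to 519 for the double knockdown, 161 to 702 for WD44 and 55 to 325 for E14. The control level of Sparc in WD44 minus PGK12.1 A to C, -0.14, became 0.27 after quantile normalization. The causes were not tested. Dim members, Sox17 and the second Dab2 probeset, were limited by signal.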

Other observations

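Genes of other lineages were called in WD44 as well, where 4.38% of all probesets were higher and 8 of 17 fibroblast markers rose in the same arrays, whose part in these values was not tested. Of 12 tested trophectoderm genes 2 were higher and none lower (the keratin Krt18 by 0.45 and Hand1 by 0.36), and of 13 epiblast genes 2 were higher (Tbx3 by 0.35 and Klf2 by 0.20) and none lower. Kdr, a receptor of mesoderm and endothelium, rose by 0.53. Of these, Krt18 was called without the experiment block (limma adjusted p = 0.0167). In E14 none of the 12 trophectoderm genes was called, and of the epiblast genes Sox2 fell by 0.21 (adjusted p = 0.0406, or 0.169 without the block).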
